A study of Mus musculus with 6 samples.

Results

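The CXCR3 and CXCR6 chemokine axes were followed here as 5 genes chosen by name out of 32286 measured: the ligands Cxcl9, Cxcl10 and Cxcl16 and the receptors Cxcr3 and Cxcr6. Their unique molecular identifiers (UMIs, each standing for 1 captured RNA molecule) were counted in single immune cells of mouse livers. Cells came from 3 groups: livers given an adeno-associated virus (AAV) with a guide RNA against Baat (AAV-sgBaat), livers given AAV with a control guide (AAV-sgSCR), and mock-infected livers. The Baat enzyme of hepatocytes conjugates bile acids to amino acids. All were taken at day 30, and each group is 1 library made from a pool of 3 tumor samples. The labels used here name no strain, age, sex or Cas9 source, and they describe the mock livers as native or naive and also as tumor bearing. CD45hi CD3+ T cells and the remaining CD45hi cells were sorted separately, so the balance between T cells and other cells was set by the sort. Having 1 library a group, the study offers no test of any difference between groups. The intervals below are exact 95% intervals for counting error only, and replicate mice could move any value further.

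CXCL9 and CXCL10 are secreted ligands of CXCR3 and are induced by interferons in myeloid and stromal cells. CXCR3 is carried by effector T cells and NK cells, which follow these ligands into inflamed tissue. CXCL16 is made as a membrane-bound chemokine with a mucin stalk, can be shed by the protease ADAM10, and binds CXCR6. In the liver CXCR6 is a hallmark of natural killer T (NKT) cells, ILC1 and tissue-resident T cells.

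A barcode was kept with at least 500 genes, at least 1000 gene UMIs and at most 10% mitochondrial UMIs, which 7094 AAV-sgBaat, 7332 AAV-sgSCR and 6068 mock barcodes passed. Their median depth was 3812, 5911 and 4164 UMIs in AAV-sgBaat, AAV-sgSCR and mock. The libraries shared between 10 and 16 barcodes in pairs. Cells were classed by marker UMIs, and barcodes with markers of incompatible lineages, 30.6% in AAV-sgBaat, 24.2% in AAV-sgSCR and 9.08% in mock, were kept out as mixed. The macrophage class, which needed 5 UMIs of C1qa, C1qb and C1qc, held 161, 62 and 2 barcodes in AAV-sgBaat, AAV-sgSCR and mock, so no ligand ratio to mock is given there. Ptprc (CD45), on which the cells were sorted, had a UMI in 77.8% of passed barcodes for AAV-sgBaat, 90.8% for AAV-sgSCR and 92.3% for mock. Genes that the gates did not use were read for some class names only, and not for CD4 or gamma-delta T cells, monocytes or neutrophils. In AAV-sgSCR, Ccr7 stood at 1493 UMIs per 1000000 gene UMIs of the class (CPM) in migratory dendritic cells (DC). Batf3 stood at 256 CPM in type 1 conventional DC (cDC1) of AAV-sgSCR. Both fitted the class names. Ccr7 stood at 1326 CPM in migratory DC of AAV-sgBaat and at 320 CPM in the 2 of mock. The T cells with NK receptors were an exception, because Zbtb16, the NKT lineage factor, stood at 12.4 CPM in AAV-sgBaat and 9.74 CPM in AAV-sgSCR, against 61.3 CPM in mock. The AAV levels are only 2 UMIs in 44 AAV-sgBaat barcodes and 4 in 75 AAV-sgSCR barcodes, beside 112 in 319 for mock. That class is therefore called NK-receptor T cells and not NKT cells.

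Cxcl9 (ENSMUSG00000029417) and Cxcl10 (ENSMUSG00000034855) lie near each other on chromosome 5, at chr5:92321331-92328079 and chr5:92346638-92348889 (GRCm38.p6, the mm10 assembly, RefSeq annotation). Cxcl16 lies at chr11:70454389-70459984, Cxcr3 at chrX:101731535-101734147 and Cxcr6 at chr9:123806477-123811754. The 250 bases before the starts of the neighbouring Cxcl9 and Cxcl10 genes are shown because both ligands are induced by interferon and bind the same receptor. They are RefSeq sequences of the minus strand, chr5:92328080-92328329 and chr5:92348890-92349139, with motif matches in capitals.
Cxcl9: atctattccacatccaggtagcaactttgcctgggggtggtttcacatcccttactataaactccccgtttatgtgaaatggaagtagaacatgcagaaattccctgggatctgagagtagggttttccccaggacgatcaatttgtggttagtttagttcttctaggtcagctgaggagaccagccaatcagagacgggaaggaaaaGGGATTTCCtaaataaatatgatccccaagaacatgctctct
Cxcl10: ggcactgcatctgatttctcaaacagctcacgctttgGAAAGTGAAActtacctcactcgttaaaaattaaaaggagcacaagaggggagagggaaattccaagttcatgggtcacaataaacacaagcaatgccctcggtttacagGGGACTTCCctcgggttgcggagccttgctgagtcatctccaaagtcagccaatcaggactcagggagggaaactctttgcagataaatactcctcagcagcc
The capitals mark matches on either strand to an interferon-response motif (GAAA, any 2 bases, GAAA) and to the kappa B-like motif GGGANTTCC, and the 2 kinds of match do not overlap each other. The Cxcl10 window held GAAAGTGAAA 213 bases before the start and a kappa B-like match 103 bases before it. The Cxcl9 window held only a kappa B-like match, 42 bases before the start. Among 32851 promoter windows of the same length, 2.98% held the first motif and 1.43% the second. Neither window held TTCNNNGAA, the gamma-activated site, which 7.02% of windows held. No match says only that these letters are not in this window.

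Outside the mixed barcodes, Cxcl16 levels were highest in migratory DC and macrophages, with cDC1 next in AAV-sgSCR. In migratory DC, which carry antigen from tissue to lymph nodes, it stood at 1390 CPM in AAV-sgBaat (95% Poisson interval 1006 to 1873, 7 barcodes), at 1122 CPM in AAV-sgSCR (1066 to 1181, 107 barcodes) and at 233 CPM in mock (2 barcodes). A UMI was present in 6 of 7, 106 of 107 and 2 of 2 of these barcodes in AAV-sgBaat, AAV-sgSCR and mock. Nearly every migratory DC carried the transcript, and the AAV-sgBaat library held very few such cells. The AAV-sgSCR migratory DC with a UMI were deep, with a median of 11674 UMIs, so their share is not at like depth with other classes.

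Macrophages had Cxcl16 at 297 CPM in AAV-sgBaat (256 to 342) and 215 CPM in AAV-sgSCR (170 to 267), a log2 ratio of 0.46 (0.08 to 0.86). With the mixed barcodes kept, the ratio was -0.31, so its direction depends on how barcodes with T cell and macrophage markers are treated. The share of macrophages with a UMI was 50.3% in AAV-sgBaat (median depth 3415 UMIs), against 46.8% in AAV-sgSCR (median depth 6190 UMIs). Thinning every barcode to 1000 UMIs gave 21.7% and 19.4%. CD8 T cells, used as the background class for this gene, had a UMI in 2.99% of AAV-sgBaat and 1.1% of AAV-sgSCR barcodes at median depths of 3585 and 4899. In macrophages, 3.68% of 5330 genes were past 2-fold higher and 4.9% past 2-fold lower in AAV-sgBaat, and Cxcl16 was not among them.

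In cDC1, the cross-presenting DC, Cxcl16 stood at 33.5 CPM in AAV-sgBaat (10.9 to 78.1), 138 CPM in AAV-sgSCR (121 to 157) and 89.2 CPM in mock (51.9 to 143). These are 15, 114 and 11 barcodes, too few for a ratio by the minimum of 50 barcodes a library. Classical monocytes had 17.9 CPM in AAV-sgBaat, against 14.1 CPM in AAV-sgSCR, and patrolling monocytes had 13.7 against 22.7 CPM. Those intervals overlapped in both classes, and monocytes lay far below the macrophages of the same library.

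Barcodes with T cell markers held 1070 of the 1474 Cxcl16 UMIs of AAV-sgBaat, 744 of them in barcodes with T cell and macrophage markers together. In AAV-sgSCR they held 1276 of 3686, with 659 in such mixed barcodes. The classes that held the remaining UMIs differed between libraries. Among barcodes without T cell markers, macrophages held 47.3% of 404 Cxcl16 UMIs in AAV-sgBaat, against 3.32% of 2410 in AAV-sgSCR. Migratory DC held 10.6% of those UMIs in AAV-sgBaat, against 61.2% in AAV-sgSCR. Migratory DC made up 0.261% of such barcodes in AAV-sgBaat, against 3.06% in AAV-sgSCR, and macrophages 6% against 1.77%. In mock the same compartment held 72 Cxcl16 UMIs in all.

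CD8 T cells of AAV-sgBaat also held Cxcl16 UMIs, mostly those that bound the CD90.1 tag more than the CD90.2 tag. These CD90.1-dominant cells had 21.9 CPM in AAV-sgBaat (15.0 to 30.9) and 1.62 CPM in AAV-sgSCR (0.741 to 3.07), from 21 of 399 and 9 of 1016 barcodes. The log2 ratio was 3.76 (2.66 to 5.01), beside a background of 6.12% of genes past 2-fold higher in this stratum. Macrophage RNA moved with it: C1q transcripts stood at 101 CPM in these cells of AAV-sgBaat and 17.8 CPM in AAV-sgSCR. In AAV-sgBaat, 47.6% of the CD90.1-dominant barcodes with a Cxcl16 UMI also had a C1q UMI, against 16.9% of those without one. The part of macrophage RNA in this ratio was not tested. B cells of AAV-sgBaat had a Cxcl16 UMI in 0 of 396 barcodes, which allows a share of up to 0.758%.

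**Figure D1:**
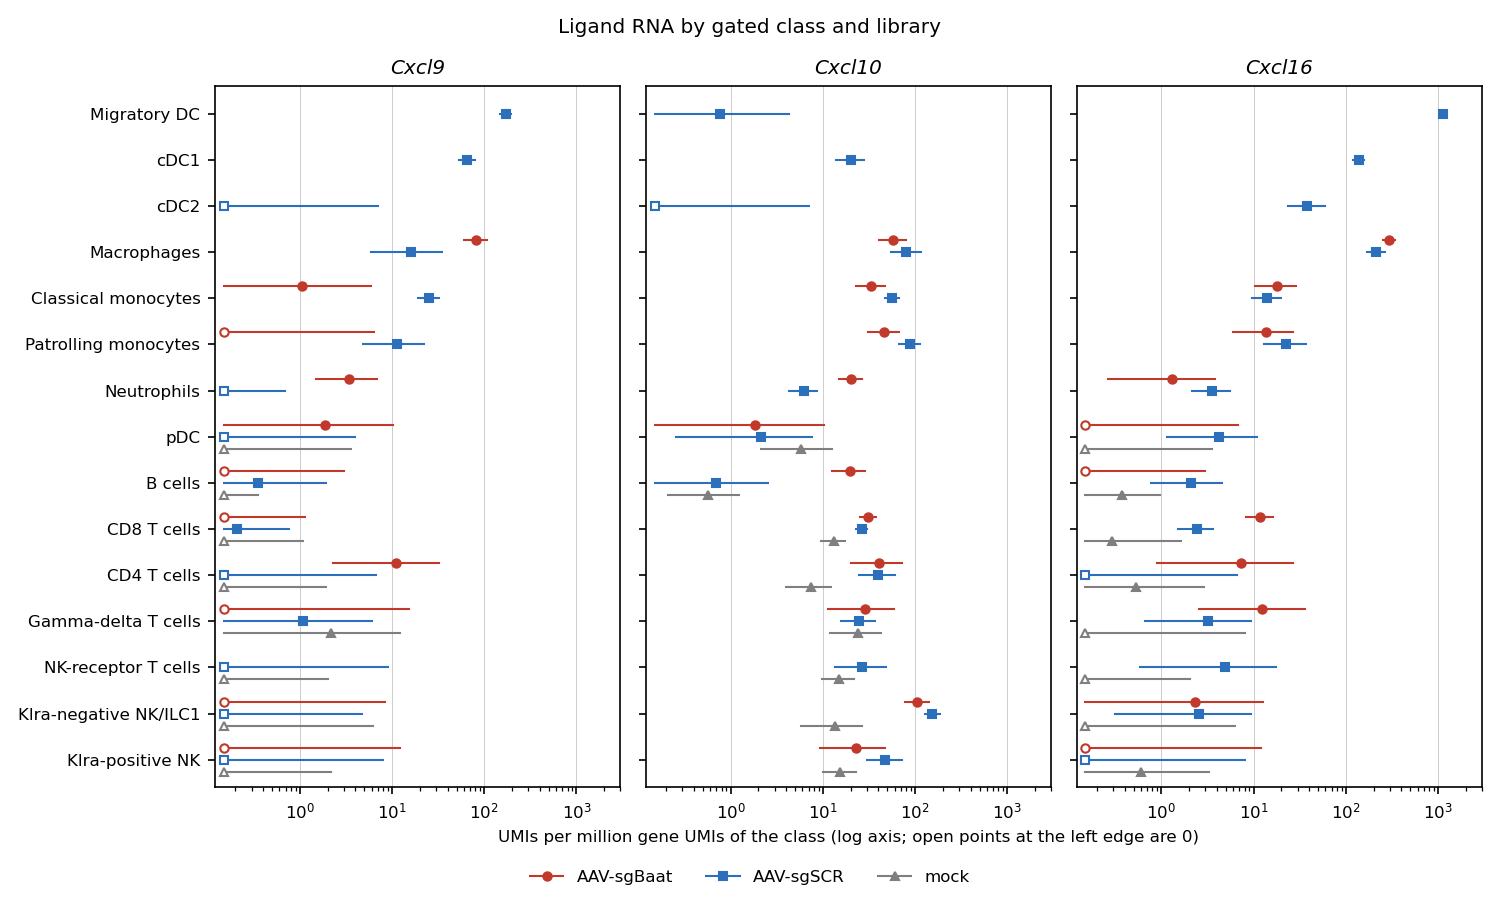
UMIs of each ligand per 1000000 gene UMIs (log axis) in gated classes with at least 50 barcodes, with points for AAV-sgBaat (red circles), AAV-sgSCR (blue squares) and mock (grey triangles). Bars are exact 95% Poisson intervals, open points are 0, and intervals are drawn from 0.15 upward. Cxcl16 is highest in migratory DC at 1122 CPM in AAV-sgSCR, and Cxcl10 is spread over many classes.

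Cxcl9 RNA was held by very few barcodes. In AAV-sgBaat 98 of 7094 barcodes had a UMI, with 700 UMIs in all, in AAV-sgSCR 59 of 7332 with 869 UMIs, and in mock 10 of 6068 with 94 UMIs. Only 6, 3 and 2 barcodes held 50% of the UMIs in AAV-sgBaat, AAV-sgSCR and mock. The highest single barcode held 17.9% of them in AAV-sgBaat, 22.9% in AAV-sgSCR and 28.7% in mock. Poisson intervals on such sums are much narrower than the spread between cells.

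Migratory DC and cDC1 held the most Cxcl9 UMIs of the gated classes in both AAV libraries, while in mock classical monocytes did. Migratory DC had 84 UMIs in 2 of 7 barcodes in AAV-sgBaat, 225 UMIs in 9 of 107 in AAV-sgSCR and 10 UMIs in 1 of 2 in mock. In AAV-sgSCR 199 of those 225 UMIs came from 1 barcode. The cDC1 had 79 UMIs in 2 of 15 barcodes in AAV-sgBaat, 107 UMIs in 8 of 114 in AAV-sgSCR and 1 UMI in 1 of 11 in mock, with 54 and 88 UMIs in 1 barcode of AAV-sgBaat and AAV-sgSCR. Most DC of either kind had none, while single cells had very many.

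Macrophages had Cxcl9 at 80.7 CPM in AAV-sgBaat (60.3 to 106) and 16.1 CPM in AAV-sgSCR (5.91 to 35.1). The UMIs came from 10 of 161 and 2 of 62 barcodes, with 52 and 6 UMIs. The log2 ratio was 2.32 (1.11 to 3.84), but it was -1.56 with the marker minimums doubled and 0.089 with at least 1000 genes and at most 5% mitochondrial UMIs a barcode. Barcodes with both T cell and macrophage markers had 18.4 CPM in AAV-sgBaat, against 4.57 CPM in AAV-sgSCR, from 27 of 613 and 9 of 289 barcodes. Their log2 ratio was 2.01 (1.38 to 2.70), beside 7.31% of genes past 2-fold higher in that class. The other mixed barcodes went the other way, with a log2 ratio of -0.40 (-0.63 to -0.17).

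Unlike macrophages at the main settings, classical monocytes had less Cxcl9 in AAV-sgBaat than in AAV-sgSCR. They had 1 UMI in 190 AAV-sgBaat barcodes, against 59 UMIs in 5 of 310 AAV-sgSCR barcodes. In mock they had 20 UMIs in 2 of 40. CD8 T cells had 0, 2 and 0 Cxcl9 UMIs in AAV-sgBaat, AAV-sgSCR and mock. B cells, the background class, had 0, 1 and 0 at median depths of 2144, 2902 and 3438 UMIs. In AAV-sgBaat macrophages, 7 of the 10 barcodes with Cxcl9 also had Cxcl16 and 3 had Cxcl10. In AAV-sgSCR migratory DC, 9 of 9 barcodes with Cxcl9 had Cxcl16 and 0 of 9 had Cxcl10, whereas 4 of 5 AAV-sgSCR classical monocytes with Cxcl9 had Cxcl10. Over all barcodes without T cell markers, Cxcl10 was found in 24.2% of those with Cxcl9 and 4.37% of those without in AAV-sgBaat, and in 24.2% and 2.80% in AAV-sgSCR.

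**Figure D2:**
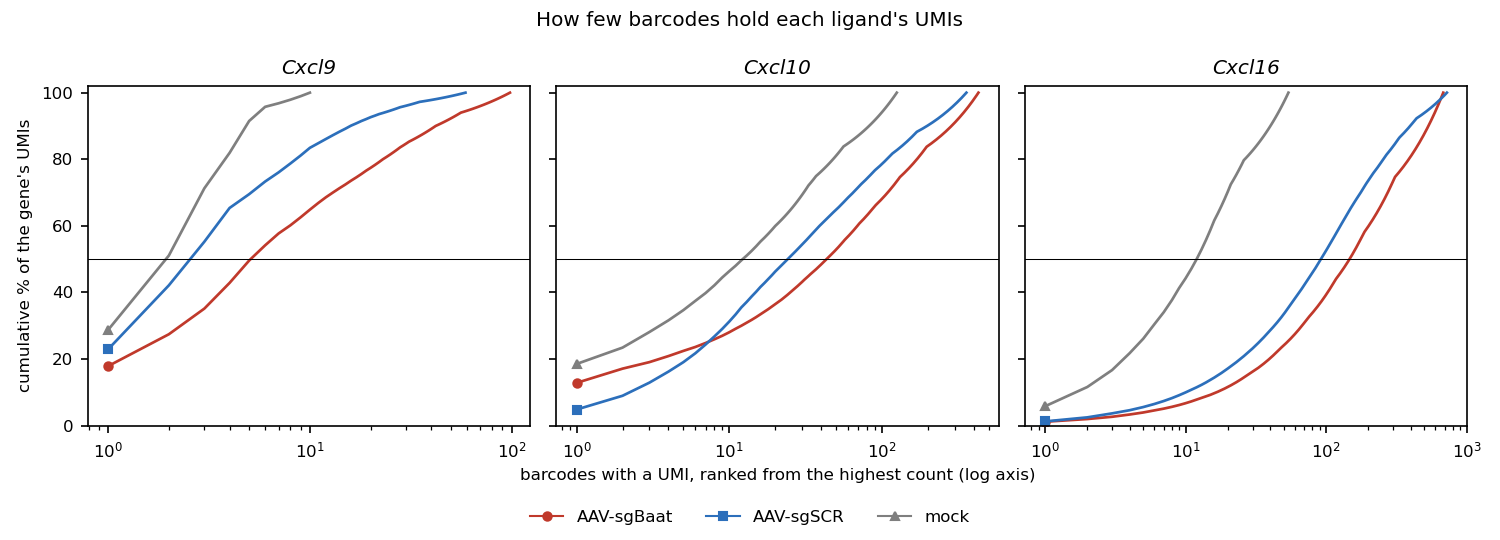
Cumulative percent of each ligand's UMIs (vertical axis) against barcodes with a UMI ranked from the highest count (log axis), for AAV-sgBaat (red), AAV-sgSCR (blue) and mock (grey). Lines start at the highest single barcode and the thin horizontal line is 50%, which Cxcl9 reaches after 6, 3 and 2 barcodes in AAV-sgBaat, AAV-sgSCR and mock.

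Cxcl10 RNA was low and spread over lymphoid and myeloid classes. In AAV-sgBaat 428 barcodes had 1427 UMIs, in AAV-sgSCR 357 had 1597 and in mock 125 had 427. Barcodes with T cell markers, mixed ones included, held 884, 995 and 314 of them in AAV-sgBaat, AAV-sgSCR and mock. Between 52.7% and 55.2% of the barcodes with Cxcl10 had 1 UMI.

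Among classes with at least 50 barcodes, the NK and ILC1 cells without Klra receptors stood highest in both AAV libraries. They had 105 CPM in AAV-sgBaat (77.0 to 140), 154 CPM in AAV-sgSCR (128 to 185) and 13.6 CPM in mock (5.85 to 26.7). A UMI was seen in 9 of 114, 12 of 151 and 5 of 119 of these barcodes in AAV-sgBaat, AAV-sgSCR and mock. Their neighbours in the order were macrophages with 57.4 CPM in AAV-sgBaat and patrolling monocytes with 87.8 CPM in AAV-sgSCR; the intervals overlapped in AAV-sgBaat and not in AAV-sgSCR. Few barcodes set these levels: the highest pair of Klra-negative barcodes had 13 and 11 of 46 UMIs in AAV-sgBaat and 45 and 39 of 120 in AAV-sgSCR. A single barcode held 53 of the 62 UMIs of the AAV-sgSCR patrolling monocytes.

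CD8 T cells had Cxcl10 at 30.9 CPM in AAV-sgBaat (25.2 to 37.6), 26.3 CPM in AAV-sgSCR (23.2 to 29.8) and 13.1 CPM in mock (9.53 to 17.5). The log2 ratio was 0.23 (-0.12 to 0.57) for AAV-sgBaat over AAV-sgSCR, 1.24 (0.72 to 1.79) for AAV-sgBaat over mock and 1.01 (0.55 to 1.5) for AAV-sgSCR over mock. With mixed barcodes kept, the ratios over mock were 0.43 for AAV-sgBaat and -0.17 for AAV-sgSCR, and after thinning 2.29 and 2.18. CD8 cells had a UMI in 5.11%, 4.68% and 3.32% of barcodes in AAV-sgBaat, AAV-sgSCR and mock, against 0.758%, 0.279% and 0.210% of B cells. Of 24 Cxcl10 UMIs in AAV-sgBaat B cells, 22 were in 1 barcode. CD4 T cells had 40.5 CPM in AAV-sgBaat and 39.6 CPM in AAV-sgSCR, against 7.35 CPM in mock. These are 11, 22 and 14 UMIs in 6, 7 and 8 barcodes of AAV-sgBaat, AAV-sgSCR and mock. In AAV-sgSCR 15 of the 22 came from 1 barcode. T cells outside the named classes had 40.3 CPM in AAV-sgBaat and 49.5 CPM in AAV-sgSCR, against 7.22 CPM in mock. Their log2 ratios over mock were 2.48 and 2.78. The AAV-sgSCR value came from 20 of 326 barcodes, and 1 barcode held 34 of its 79 UMIs. In that class 12.2% of genes were past 2-fold higher in AAV-sgBaat over mock and 5.32% in AAV-sgSCR over mock.

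In macrophages Cxcl10 stood at 57.4 CPM in AAV-sgBaat (40.4 to 79.2) and 80.6 CPM in AAV-sgSCR (54.4 to 115), a log2 ratio of -0.49 (-1.22 to 0.26). It was -1.33 with the marker minimums doubled, -1.99 with the stricter barcode filter and -2.11 after thinning. The UMIs came from 11 of 161 barcodes in AAV-sgBaat and 4 of 62 in AAV-sgSCR. The AAV-sgSCR count is below the 5 barcodes asked of each library elsewhere, and its highest barcodes held 13 and 12 of 30 UMIs. Neutrophils had 20.2 CPM in AAV-sgBaat and 6.19 CPM in AAV-sgSCR, from 25 of 516 and 21 of 908 barcodes. Their log2 ratio was 1.71 (1.03 to 2.40), beside 2.07% of genes past 2-fold higher in neutrophils, and was 0.82 with mixed barcodes kept. Classical monocytes had 33.6 CPM in AAV-sgBaat and 56.5 CPM in AAV-sgSCR, a log2 ratio of -0.75. It was 0.22 when the barcode with the most UMIs was left out of each library, since 1 AAV-sgSCR barcode held 77 of 132 UMIs. In type 2 conventional DC, 183 of the 199 AAV-sgBaat UMIs came from 1 barcode and AAV-sgSCR had 0 in 57 barcodes.

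Cxcr6 RNA was carried by T cells and by NK and ILC1 cells without Klra receptors. Gamma-delta T cells were classed by Trdc, a constant gene of the delta chain, without Cd4, so cells with Cd8a or Cd8b1 could be among them. They had 417 CPM in AAV-sgBaat (340 to 506), 288 CPM in AAV-sgSCR (254 to 324) and 239 CPM in mock (196 to 288). Their log2 ratio was 0.54 (0.19 to 0.87) for AAV-sgBaat over AAV-sgSCR, from 59 and 154 barcodes. CD4 T cells had 195 CPM in AAV-sgBaat (146 to 255), 126 CPM in AAV-sgSCR (98.1 to 159) and 103 CPM in mock (89.4 to 119). Klra-negative NK and ILC1 cells had 101 CPM in AAV-sgBaat, 124 CPM in AAV-sgSCR and 161 CPM in mock.

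NK-receptor T cells had the highest Cxcr6 level of the mock library, 452 CPM in 319 barcodes (422 to 484). They had 214 CPM in 75 AAV-sgSCR barcodes (172 to 264), a log2 ratio of -1.08 (-1.41 to -0.76) over mock, and 130 CPM in 44 AAV-sgBaat barcodes. Among all genes of this class 11.5% were past 2-fold lower in AAV-sgSCR than in mock. The ratio was -1.96 with the marker minimums doubled and -0.41 after thinning. Zbtb16 was lower in the AAV libraries in the same class, by the values above, and the part of a changed make-up of the class was not tested. Cxcr3 went with it in direction, at 105 CPM in AAV-sgBaat, 124 CPM in AAV-sgSCR and 176 CPM in mock.

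Klra-positive NK cells, the conventional circulating kind, had Cxcr6 at 6.58, 13 and 14.9 CPM in AAV-sgBaat, AAV-sgSCR and mock. The Klra-negative cells of the same library lay above them, and the intervals were apart in all 3 libraries. The classes used as background were lower still: neutrophils had 1.72 CPM in AAV-sgBaat and 2.81 CPM in AAV-sgSCR, and B cells had 3.24, 1.74 and 0.662 CPM in AAV-sgBaat, AAV-sgSCR and mock. Immature T-like cells, which carry Dntt and Arpp21, had 9.78 CPM in AAV-sgBaat and 2.71 CPM in AAV-sgSCR.

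**Figure D3:**
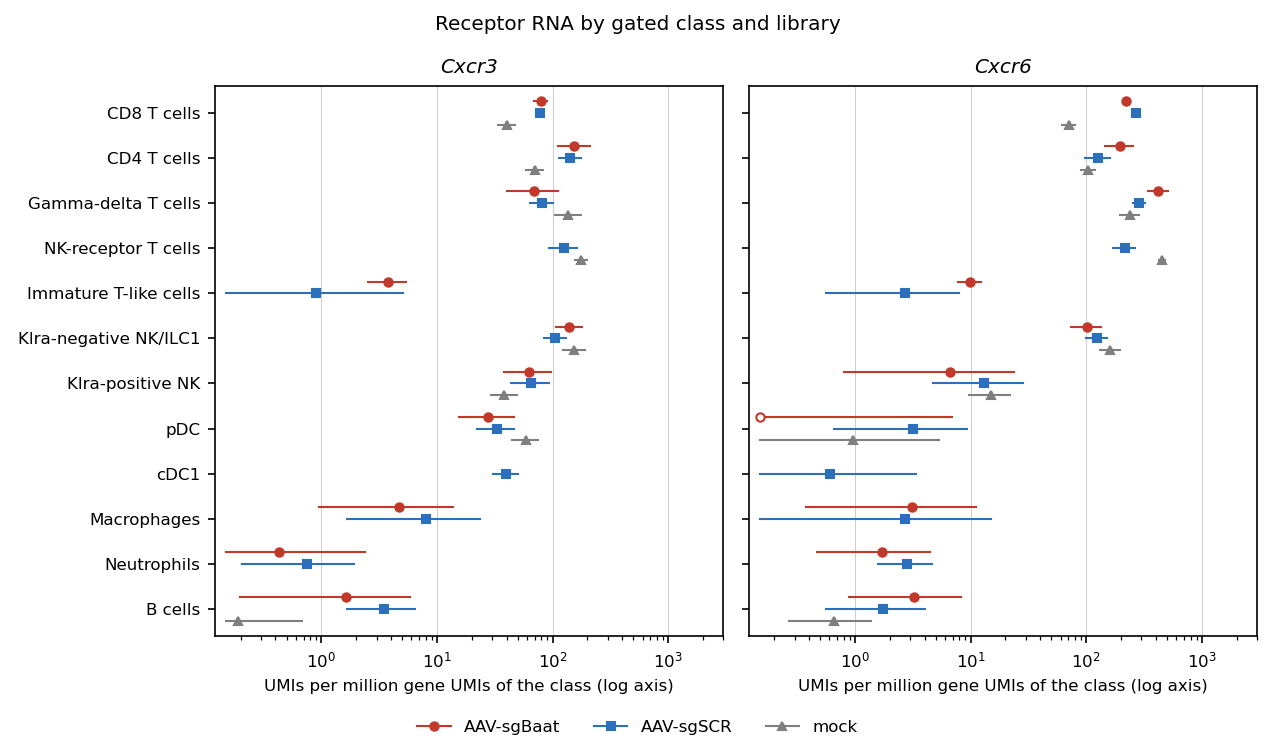
UMIs of each receptor per 1000000 gene UMIs (log axis) in gated classes with at least 50 barcodes, with points for AAV-sgBaat (red circles), AAV-sgSCR (blue squares) and mock (grey triangles). Bars are exact 95% Poisson intervals drawn from 0.15 upward and an open point is 0. CD8 T cells of both AAV libraries lie above those of mock for both receptors, and NK-receptor T cells of AAV-sgSCR lie below those of mock.

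CD8 T cells had Cxcr6 at 223 CPM in AAV-sgBaat (207 to 240), 270 CPM in AAV-sgSCR (260 to 281) and 70.3 CPM in mock (61.7 to 79.7). The log2 ratio was -0.28 (-0.40 to -0.16) for AAV-sgBaat over AAV-sgSCR, 1.67 (1.45 to 1.88) for AAV-sgBaat over mock and 1.94 (1.75 to 2.14) for AAV-sgSCR over mock. For AAV-sgSCR over mock 12.3% of 10886 genes were past 2-fold higher in CD8 cells, for AAV-sgBaat over mock 9.35% of 9761. For AAV-sgBaat over AAV-sgSCR 4.53% of 10962 genes were past 2-fold lower, and Cxcr6 was not one of them. Both AAV libraries held more Cxcr6 than mock, and the AAV-sgBaat level was slightly below that of AAV-sgSCR.

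A Cxcr6 UMI was present in 41.1% of CD8 barcodes in AAV-sgBaat, 57.8% in AAV-sgSCR and 27.3% in mock, at median depths of 3585, 4899 and 5816 UMIs. After thinning to 1000 UMIs, which every barcode had, the shares were 19.7%, 21.9% and 7.01%. Neutrophils had a UMI in 0.775% of barcodes for AAV-sgBaat and 1.54% for AAV-sgSCR at median depths of 3894 and 4766 UMIs, and B cells in 1.01%, 0.698% and 0.245% in AAV-sgBaat, AAV-sgSCR and mock. Most of the gap between the AAV libraries in the unthinned share was absent after thinning.

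Cxcr3 in CD8 T cells stood at 78.6 CPM in AAV-sgBaat (69.2 to 88.9), 77.1 CPM in AAV-sgSCR (71.6 to 82.8) and 40.4 CPM in mock (33.9 to 47.6). The log2 ratio was 0.03 (-0.18 to 0.24) for AAV-sgBaat over AAV-sgSCR, 0.96 (0.66 to 1.27) for AAV-sgBaat over mock and 0.93 (0.67 to 1.21) for AAV-sgSCR over mock. None of these reached 2-fold. The share of CD8 barcodes with a UMI was 23.2%, 30.6% and 17.7% as deposited and 6.60%, 8.85% and 4.06% after thinning in AAV-sgBaat, AAV-sgSCR and mock. Neutrophils had a Cxcr3 UMI in 0.194% of barcodes for AAV-sgBaat and 0.441% for AAV-sgSCR.

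**Figure D4:**
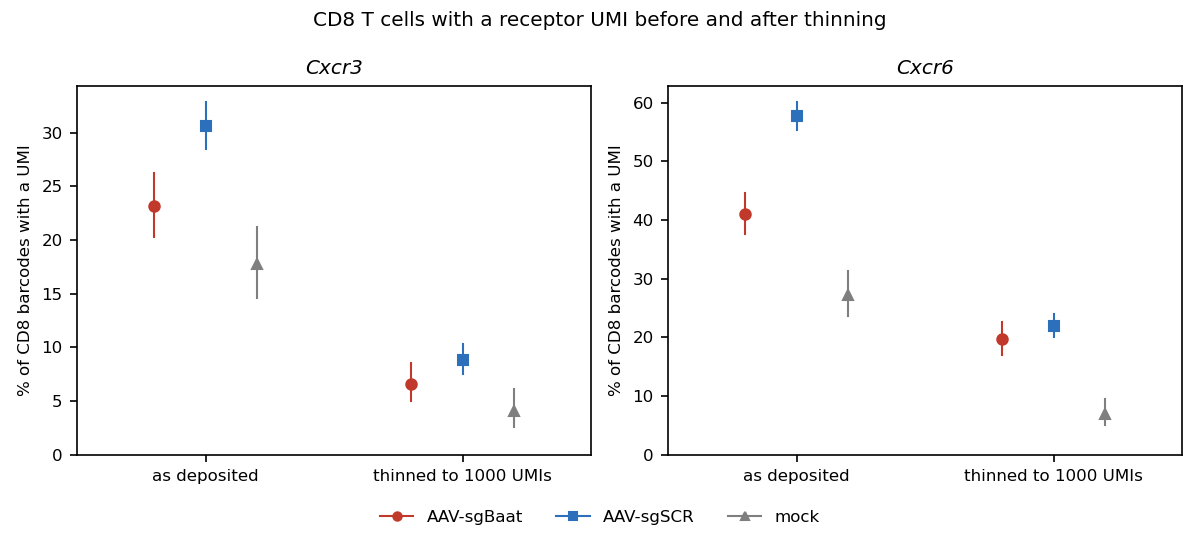
Percent of CD8 T cell barcodes with a UMI of each receptor, as deposited and after thinning each barcode to 1000 UMIs, for AAV-sgBaat (red), AAV-sgSCR (blue) and mock (grey). Bars are exact 95% Clopper-Pearson intervals. For Cxcr6 the AAV-sgBaat share is 41.1% against 57.8% in AAV-sgSCR as deposited, and 19.7% against 21.9% after thinning.

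Outside CD8 cells, Cxcr3 was high in CD4 T cells, NK-receptor T cells and Klra-negative NK and ILC1 cells. CD4 T cells had 155 CPM in AAV-sgBaat (111 to 209), 142 CPM in AAV-sgSCR (112 to 177) and 70.3 CPM in mock (58.9 to 83.3), with log2 ratios over mock of 1.14 and 1.01, of which the AAV-sgBaat one was 1.76 after thinning. In CD4 cells 6.67% of genes were past 2-fold higher in AAV-sgBaat over mock and 5.24% in AAV-sgSCR over mock. Gamma-delta T cells ran the other way, with 69.5 CPM in AAV-sgBaat, 80.5 CPM in AAV-sgSCR and 136 CPM in mock (104 to 174). The NK marker panel stood at 119 CPM in this class of AAV-sgBaat, 137 CPM in AAV-sgSCR and 480 CPM in mock. The part of a changed make-up of the class was not tested. Klra-negative NK and ILC1 cells had 140, 106 and 154 CPM and Klra-positive NK cells 62.5, 64.9 and 38.1 CPM in AAV-sgBaat, AAV-sgSCR and mock.

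Of the DC, the plasmacytoid kind and cDC1 carried Cxcr3. Migratory DC of AAV-sgSCR had 2 UMIs in 107 barcodes and type 2 conventional DC 3 in 57. Plasmacytoid DC had 27.8 CPM in AAV-sgBaat (15.6 to 45.9), 32.9 CPM in AAV-sgSCR (22.3 to 46.6) and 58.6 CPM in mock (44.8 to 75.2). The log2 ratio of AAV-sgBaat over mock was -1.07, beside 13.9% of genes past 2-fold lower. These levels came from 15, 31 and 61 UMIs in AAV-sgBaat, AAV-sgSCR and mock. After thinning to 1000 UMIs, a Cxcr3 UMI was left in 4.26% of 94, 4.20% of 119 and 3.15% of 127 plasmacytoid DC. The direction against mock turned, but each thinned share is a few barcodes, so thinning does not settle the direction. The cDC1 had 53.6 CPM in AAV-sgBaat, 39.5 CPM in AAV-sgSCR and 36.7 CPM in mock, from 15, 114 and 11 barcodes. Macrophages had 3 Cxcr3 UMIs in each AAV library.

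Within the CD8 T cells the receptors were split by the CD90 tags and by Ccl5, a chemokine of effector and memory CD8 cells. CD90.1-dominant cells made up 49.7% of CD8 barcodes in AAV-sgBaat, 58.8% in AAV-sgSCR and 2.21% in mock. CD90.2-dominant cells with at least 2 Ccl5 UMIs made up 35.5%, 34.3% and 43.4%, and those with fewer 10.6%, 5.55% and 51.3%, in AAV-sgBaat, AAV-sgSCR and mock. The labels used here do not say which cells carry CD90.1.

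Cxcr6 was highest in the CD90.1-dominant cells of both AAV libraries, at 304 CPM in AAV-sgBaat (276 to 333) and 342 CPM in AAV-sgSCR (327 to 358). The log2 ratio was -0.17 (-0.32 to -0.02), and 0.044 after thinning. The CD90.2 Ccl5-positive cells had 173 CPM in AAV-sgBaat (150 to 198), 193 CPM in AAV-sgSCR (178 to 209) and 94.0 CPM in mock (79.7 to 110). Over mock, the AAV-sgBaat cells had a log2 ratio of 0.88 (0.57 to 1.19) and the AAV-sgSCR cells one of 1.04 (0.78 to 1.3). Cells of the same stratum thus held more Cxcr6 in both AAV libraries than in mock, beside 2.31% and 3.81% of genes past 2-fold higher for AAV-sgBaat and AAV-sgSCR.

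The CD90.2 Ccl5-low cells, which in mock are most of the CD8 cells, had Cxcr6 at 88.6 CPM in AAV-sgBaat (63.0 to 121), 23.8 CPM in AAV-sgSCR (13 to 40) and 25.1 CPM in mock (18.1 to 34.0). The log2 ratio for AAV-sgBaat over AAV-sgSCR was 1.89 (0.98 to 2.89), beside 4.19% of genes past 2-fold higher. It rests on 14 of 85 barcodes against 8 of 96, and 11 of the 39 AAV-sgBaat UMIs came from 1 barcode; with the stricter barcode filter the ratio was 3.17. The same cells had Cxcr3 at 34.1 CPM in AAV-sgBaat, 35.8 CPM in AAV-sgSCR and 5.39 CPM in mock (2.46 to 10.2). Its log2 ratio over mock was 2.66 in AAV-sgBaat and 2.73 in AAV-sgSCR, beside 6.65% and 3.6% of genes past 2-fold higher.

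Cxcr3 and Cxcr6 were ordered differently over the strata. Cxcr3 was highest in CD90.2 Ccl5-positive cells, at 126 CPM in AAV-sgBaat (107 to 147), 109 CPM in AAV-sgSCR (98.1 to 121) and 65.9 CPM in mock (54.1 to 79.6). The CD90.1-dominant cells had 52.0 CPM in AAV-sgBaat and 62.4 CPM in AAV-sgSCR. Within a library, the log2 ratio of CD90.1-dominant over CD90.2 Ccl5-positive cells was -1.27 (-1.69 to -0.87) for Cxcr3 in AAV-sgBaat, against -0.81 (-1.02 to -0.59) in AAV-sgSCR. For Cxcr6 the same ratio was 0.81 (0.57 to 1.06) in the AAV-sgBaat library, against 0.82 (0.69 to 0.96) in AAV-sgSCR. After thinning, 4.51% of CD90.1-dominant cells and 10.5% of CD90.2 Ccl5-positive cells of AAV-sgBaat had a Cxcr3 UMI, and 25.8% and 14.7% a Cxcr6 UMI. In AAV-sgSCR these shares were 7.58% and 11.8% for Cxcr3 and 26.2% and 17.7% for Cxcr6.

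The strata of both AAV libraries were then weighted by the mix of strata in AAV-sgSCR. Cxcr6 in CD8 cells became 246 CPM in AAV-sgBaat and 272 CPM in AAV-sgSCR. Cxcr3 became 76.6 and 77.2 CPM in AAV-sgBaat and AAV-sgSCR. The gap in Cxcr6 was smaller at this shared mix than in the plain sums of 223 and 270 CPM. The plain sums also hold CD8 barcodes with under 100 CD90 tags, which the weighting left out. These were 4.23% of CD8 barcodes in AAV-sgBaat and 1.39% in AAV-sgSCR.

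**Figure D5:**
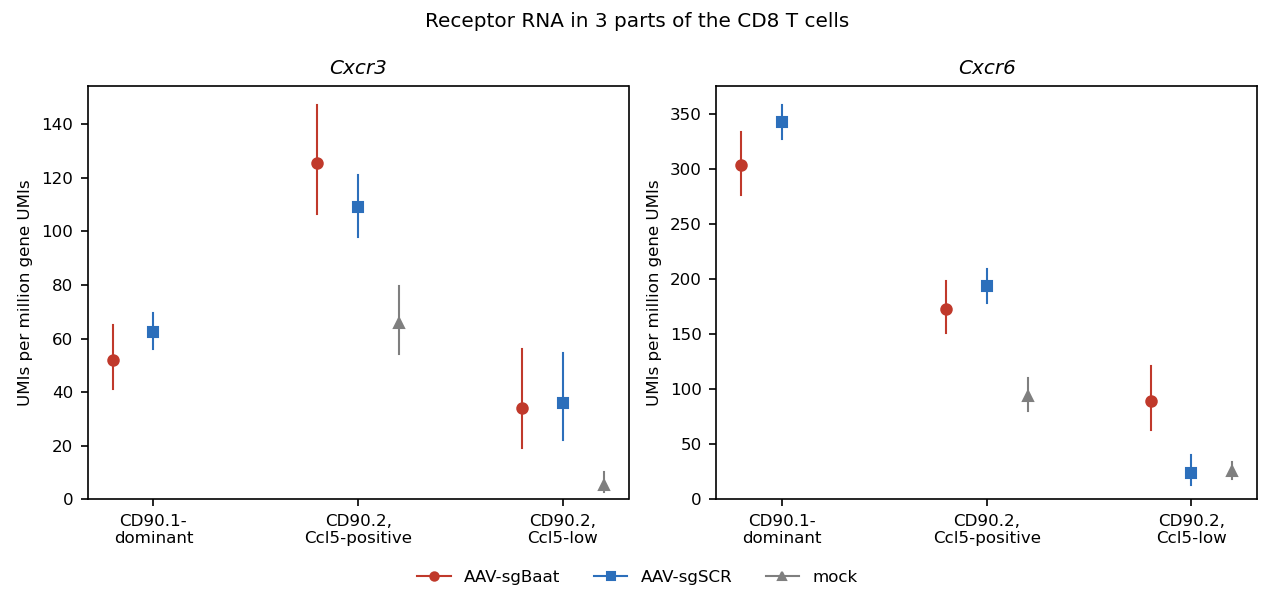
UMIs of Cxcr3 and Cxcr6 per 1000000 gene UMIs in CD8 T cells split by CD90 tag and Ccl5, for AAV-sgBaat (red circles), AAV-sgSCR (blue squares) and mock (grey triangles), with exact 95% Poisson intervals. The 12 CD90.1-dominant barcodes of mock are not drawn. Cxcr6 is highest in CD90.1-dominant cells (304 and 342 CPM in AAV-sgBaat and AAV-sgSCR) and Cxcr3 in CD90.2 Ccl5-positive cells (126, 109 and 65.9 CPM in AAV-sgBaat, AAV-sgSCR and mock).

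The receptors were often found in the same CD8 barcode, which also depended on depth. In AAV-sgBaat 55.9% of CD8 barcodes with Cxcr3 had Cxcr6, against 36.6% of those without Cxcr3, in AAV-sgSCR 63.3% against 55.3%, and in mock 43.8% against 23.8%. Barcodes with a Cxcr3 UMI were deeper in the AAV libraries, with medians of 4338 against 3302 UMIs for AAV-sgBaat and 5212 against 4790 in AAV-sgSCR. After thinning, Cxcr6 was found in 22.6% of AAV-sgBaat barcodes with Cxcr3, against 19.5% of those without. The same shares were 21.6% against 22.0% in AAV-sgSCR and 27.3% against 6.15% in mock. The mock value rests on 6 of 22 barcodes and pools strata that differ in both receptors. Within the CD90.2 Ccl5-positive stratum of mock, the thinned shares were 22.2% (4 of 18 barcodes) against 8.76%.

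Genes of the surrounding pathways were taken from lists. In macrophages, 21 of the 27 measured inducers, interferon and TNF signal parts and ligand proteases had at least 20 UMIs. Of these 0 were past 2-fold higher and 2 past 2-fold lower in AAV-sgBaat over AAV-sgSCR, with a median log2 ratio of 0.02 against -0.05 over all 5330 genes, of which 3.68% were past 2-fold higher and 4.9% past 2-fold lower. The lower ones were Socs3, an inhibitor of cytokine signalling, at 66.8 CPM in AAV-sgBaat and 263 CPM in AAV-sgSCR, and Tnf at 26.4 and 69.8 CPM in AAV-sgBaat and AAV-sgSCR. Ifngr1, a chain of the interferon-gamma receptor, stood at 250 CPM in AAV-sgBaat and 478 CPM in AAV-sgSCR, and Ifnar1, of the type I interferon receptor, at 83.8 and 45.7 CPM. Adam10, the CXCL16 sheddase, stood at 63.7 CPM in AAV-sgBaat and 96.7 CPM in AAV-sgSCR with an interval of the log2 ratio of -1.28 to 0.08. Of 3 other CXC ligands with enough UMIs, none was past 2-fold.

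In CD8 T cells all 31 listed transcription factors, G protein signal parts and integrins had enough UMIs. Of these 1 was past 2-fold higher and 0 past 2-fold lower in AAV-sgBaat over AAV-sgSCR, with a median log2 ratio of -0.16 against -0.03 over all genes, where 3.82% of genes were past 2-fold higher. It was Tcf7, a factor of naive and stem-like T cells, at 203 CPM in AAV-sgBaat and 87.4 CPM in AAV-sgSCR, a log2 ratio of 1.22. Rgs2, a brake on G protein signals, stood at 100.3 and 54.8 CPM in AAV-sgBaat and AAV-sgSCR. Of 8 other migration receptors 1 was past 2-fold higher: Ccr2, the receptor for monocyte chemoattractants, with 58.8 CPM in AAV-sgBaat and 21.8 CPM in AAV-sgSCR. Cx3cr1, the fractalkine receptor, had 26.0 CPM in AAV-sgBaat and 13.3 CPM in AAV-sgSCR. In the CD90.1-dominant cells Ccr2 had 80 CPM in AAV-sgBaat and 16.2 CPM in AAV-sgSCR, a log2 ratio of 2.30 (1.90 to 2.72), beside 6.12% of genes past 2-fold higher. Ccr2 is also a monocyte gene, and myeloid RNA moved with it in this stratum: classical monocyte markers stood at 47.2 CPM in AAV-sgBaat and 11.5 CPM in AAV-sgSCR, beside the C1q values above. Its part in the Ccr2 ratio was not tested.

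Against mock most of the other migration receptors were lower in CD8 cells of the AAV libraries, 5 of 7 in AAV-sgBaat and 7 of 8 in AAV-sgSCR, with 1 in each comparison whose interval lay above 0. For AAV-sgSCR over mock, 5 of 8 were past 2-fold lower and 0 higher, with a median of -1.74 against 0.13 over all genes and 4.15% of genes past 2-fold lower. For AAV-sgBaat over mock, 4 of 7 were past 2-fold lower and 0 higher, with a median of -1.56 and 4.28% of all genes. Ccr7, which takes naive T cells into lymph nodes, stood at 37.1 CPM in AAV-sgBaat, 33.0 CPM in AAV-sgSCR and 255 CPM in mock. S1pr1, the exit receptor of lymphoid organs, stood at 51.1 CPM in AAV-sgBaat, 34.2 CPM in AAV-sgSCR and 221 CPM in mock. Both AAV comparisons share the mock library. The median was also below 0 within the CD90.2 Ccl5-positive stratum, at -1.22 for AAV-sgBaat over mock and -1.04 for AAV-sgSCR over mock.

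The genes whose levels most resembled each member were ranked over 41 sums, one for each class and library with at least 50 barcodes, by Pearson's r of log2(CPM + 5) among 12324 genes. They were Fndc7 (r = 0.87), Arhgap22 and Fnip2 for Cxcl9, and Fndc7 (r = 0.93), Shtn1 and Cttnbp2nl for Cxcl16. Ifngr1 (r = 0.73), Gpr65 and Zbp1 were nearest to Cxcl10. Myo6 (r = 0.91) and Gbp6 were near to Cxcr3, and Igflr1 (r = 0.94), Acsbg1 and Cd226 to Cxcr6. Among the members, r was 0.86 for Cxcl9 with Cxcl16, 0.83 for Cxcr3 with Cxcr6, and 0.16 for Cxcl9 with Cxcl10. Cxcl9 had no UMI in most of these sums, so its r values rest on few of them. In its highest sum, migratory DC of AAV-sgSCR, 199 of 225 UMIs came from 1 barcode. The sums of one library share its depth and free RNA, and these values describe the 41 sums only.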

How the data were processed

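Raw UMI counts per gene and barcode were deposited as matrices, made by the authors with Cell Ranger 6.0.1 per the file headers and on mm10 per the submitters' processing notes, with no normalization. Each holds 32286 genes and 3 antibody tags (CD90.1, CD90.2, F4/80). The 3 antibody samples were read only through these tags. Total depth was 48359443 gene UMIs in AAV-sgBaat, 62570529 in AAV-sgSCR and 32005400 in mock.

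Barcodes were classed by 16 marker panels with fixed UMI minimums. Scrublet's automatic threshold called 1, 1 and 258 barcodes in AAV-sgBaat, AAV-sgSCR and mock and so had not worked in the AAV libraries. Doublets were therefore left to the rule on mixed markers, and the barcodes with the highest scores (0.8% per 1000 barcodes) were left out only as an alternative. Counts were summed per class and library and divided by the class's gene UMIs. Intervals are exact Poisson for sums, exact conditional binomial for log2 ratios and exact Clopper-Pearson for shares, all at 95% and for counting error only. A count of 0 was set to 3 for limits. Ratios needed 50 barcodes in both libraries, 20 barcodes with a UMI over both and 5 in each, except for ligands in macrophages; this minimum was chosen after values were seen. Genes were compared with the share past 2-fold among those with at least 20 UMIs over both libraries.

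The members and lists were chosen with earlier results of these data known. Named genes are the 5 members, up to 4 list genes per class with the largest ratio between the AAV libraries in either direction, and the 3 genes most like each member, of which 1 is not reported here; Adam10, Ccr7 and S1pr1 were named after their values were seen. Matplotlib 3.10.9, pandas 2.3.3, scipy 1.17.1, numpy 2.4.6, scanpy 1.11.5 and anndata 0.12.19 ran under Python 3.11.15, and the ratio code was tested on simulated data.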

Additional observations from a re-analysis of the deposited data

Results flagged for a closer look

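Some genes had intervals on opposite sides of 0 in 2 classes under the same contrast. These differences between classes were not tested, and counting intervals leave out the spread between mice. Cxcl10 in AAV-sgBaat over AAV-sgSCR had a log2 ratio of 1.71 in neutrophils and -0.75 in classical monocytes, where 1 AAV-sgSCR barcode held most UMIs. The neutrophil ratio was 0.82 with mixed barcodes kept, and the monocyte ratio 0.22 without the top barcode. Cxcr6 in AAV-sgBaat over AAV-sgSCR was 0.63 in CD4 T cells and -0.28 in CD8 T cells, but the CD4 ratio was -0.15 with the marker minimums doubled. Cxcr6 was 1.94 in CD8 T cells and -1.08 in NK-receptor T cells for AAV-sgSCR over mock. For AAV-sgBaat over mock it was 1.67 in CD8 T cells and -0.68 in Klra-negative NK and ILC1 cells. Cxcr3 was 1.01 in CD4 T cells and -0.83 in plasmacytoid DC for AAV-sgSCR over mock, and 1.14 and -1.07 in these classes for AAV-sgBaat over mock. After thinning the plasmacytoid DC ratios were 0.42 for AAV-sgSCR and 0.43 for AAV-sgBaat, so the opposite directions were then absent. Those thinned values rest on a few barcodes in each library.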

How the results depend on the processing

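Of 72 alternative values for the 9 main ratios, 56 stayed within the counting interval of the main value, 14 fell outside it and 2 reversed. Of 399 for the other 54 ratios, 361, 30 and 8 did. A reversal was counted only where the main interval excluded 0, so the other ratios could change sign without being counted as reversed. The causes were not tested. For AAV-sgBaat over AAV-sgSCR in macrophages, Cxcl9 was -1.56 with panel minimums doubled and 0.089 with the strict barcode filter (at least 1000 genes, at most 5% mitochondrial UMIs), Cxcl10 was -1.33, -1.99 and -2.11 with doubled minimums, the strict filter and thinning, and Cxcl16 was -0.31 with mixed barcodes kept. In CD8 T cells, thinning gave -0.37 for Cxcr3 and -0.12 for Cxcr6 in AAV-sgBaat over AAV-sgSCR, and 1.22 and 1.68 in AAV-sgSCR over mock. The strict filter gave Cxcr6 at -0.46 in AAV-sgBaat over AAV-sgSCR and 1.44 in AAV-sgBaat over mock. With mixed barcodes kept, Cxcr3 was 0.54 and Cxcr6 1.5 in AAV-sgSCR over mock, and 0.63 and 1.29 in AAV-sgBaat over mock. Among the other ratios, Cxcl10 reversed to -0.17 in CD8 T cells of AAV-sgSCR over mock with mixed barcodes kept, and in classical monocytes to 1.59 with doubled minimums and 0.22 without the top barcode, an alternative chosen after seeing the data. Cxcr3 in plasmacytoid DC reversed to 0.42 (AAV-sgSCR over mock) and 0.43 (AAV-sgBaat over mock) with thinning, which left a UMI in few barcodes. Cxcr6 reversed in CD4 T cells with doubled minimums to -0.15 (AAV-sgBaat over AAV-sgSCR) and -0.0011 (AAV-sgBaat over mock), and in CD90.1-dominant CD8 cells to 0.044 with thinning. Ratios of the ligands in macrophages to mock were not run, since mock had 2 such barcodes. No paired analysis was possible because each group is 1 library.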
